A study of Homo sapiens with 12 samples.

Results

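In SW620 cells, a human colorectal cancer line, 1359 of 41755 merged regions with an N4-acetylcytidine (ac4C) signal leaned towards the libraries from cells depleted of NAT10. In acetylated RNA immunoprecipitation sequencing (acRIP-seq), RNA is broken into fragments, those bound by an antibody to ac4C are sequenced, and enriched stretches of RNA are called as peaks. Same-strand peaks of the 6 immunoprecipitation (IP) libraries were joined into 1 region where they overlapped, if only by 1 base. A region was selected on its measured presence, namely a peak in all 3 NAT10-knockdown libraries and in at most 1 of the 3 control libraries. These regions are called knockdown-leaning here, and the same rule turned around gives the control-leaning regions, with a peak in all 3 control and at most 1 knockdown library.

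The control cells carried the control short hairpin RNA (shControl, with the genotype given as WT), and the knockdown cells carried a short hairpin RNA against NAT10 (shNAT10, with the genotype given as NAT10 knockdown). Per the study's methods both were stable lines made with lentivirus and selected with puromycin, and all were grown in L15 medium with serum. Which shNAT10 sequence the cells carried is not given in the sources used here, and nothing says that the replicates came from separate cultures, so p-values below measure only the spread between these libraries. Each group also had 3 input libraries, which were not analysed here.

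NAT10 is the acetyltransferase that forms ac4C, which is long known in transfer RNA and ribosomal RNA and has also been mapped in messenger RNA. In mRNA the modification has been linked to transcript stability and translation, and acetylated sites have been described near translation starts and in runs of cytosines spaced by 2 other bases. A peak records pulled-down RNA above a background, so it can depend on both the modification and the amount of the transcript. Whether the peaks were called against the input libraries is not given in the sources used here. With the inputs not analysed, more ac4C on a transcript and more of that transcript cannot be told apart here.

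Control replicates 1, 2 and 3 had 18241, 22619 and 20063 peaks, and knockdown replicates 1, 2 and 3 had 28752, 17877 and 19047. Knockdown replicate 1 held the most, and the groups overlapped. The means were 20308 ± 2199 and 21892 ± 5970 (SD, n = 3 each; two-sided exact permutation test, p = 0.9, where the smallest p that 3 against 3 allow is 0.1). Knockdown minus control was 1584 peaks, and -1846 once knockdown replicate 1 was left out. Read counts are not listed, which leaves the depth unknown. Each peak carries a score from 50 upwards, with 7.85% to 14.1% of the peaks of a library at 3100 or above, and the score is given below either as listed or as a percentile among the peaks of its own library. Of 8 markers of intestinal epithelium, 5 (EPCAM, KRT8, CDH1, CDX2 and VIL1) had a peak in all 6 libraries and KRT18 and KRT20 had none, while none of 4 fibroblast and 3 leukocyte markers had one in all 6. The NAT10 gene had 1, 0 and 2 peaks in control cells against 2, 0 and 1 after knockdown, none of them in a knockdown-leaning region. Peaks are no measure of how much NAT10 mRNA is left, so they do not check the knockdown.

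A gene was taken as the host of a region when its span on GRCh38 held the centre of the region on the same strand. Among the knockdown-leaning regions, 128 overlapped the start window of their host gene. This window took in bases before the start as well as the first 50 transcribed bases. The RefSeq sequences (GRCh38.p14) of the first 30 transcribed bases are shown for genes whose merged region covered all 30, so that the base composition at these starts can be read. The first 6 are those with the highest scores, and CSTF2 had no control peak in its region. Capitals mark a match to the spaced cytosine motif, a C followed by any 2 bases, 4 times in a row, searched on the transcribed strand only.
JPT1: acttacttggtggaagggtttggattctgt
EMC7: ggtctgagtgcagagctgctgtcatggcgg
KCTD5: gagctgttgcggggcttgctgggatcatgg
CLUH: ggtgactccgtccttcCCTCAGCAGCCGcg
ACAP3: attccggggcgggcgggcgccgaggcggcg
FTL: gcagttcggcggtcccgcgggtctgtctct
CSTF2: gcaccggaagccgactcaacagagctatgg

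JPT1 held 3 C in these 30 bases and CLUH, which encodes a protein that binds mRNAs of mitochondrial proteins, held 13. The start printed for JPT1 lay inside the gene span, and its region ran on 5′ of it to 0.269 kb from the span's 5′ edge. Over the first 50 bases, the motif was present in 34 of 124 genes whose start window overlapped a knockdown-leaning region (27.4%). It was present in 33.3% of the 117 genes with a control-leaning region there, in 38.3% of the 2016 genes with a region found in all 6 libraries, and in 30.2% of all 15843 protein-coding genes with a sequence. The median share of C in these bases was 28% for the knockdown-leaning starts, 30% for the control-leaning starts and 28% for all genes. A match is a description of these letters and not an acetylated site.

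The 1359 knockdown-leaning regions made up 3.25% of all regions, and the 713 control-leaning regions made up 1.71%. With no library of the other group allowed, the counts were 342 knockdown-leaning regions (0.819%) and 142 control-leaning regions (0.340%). The rule fixed these counts and no test was made on them. Just outside the rule, 2393 regions had a peak in all 3 knockdown and 2 control libraries, and 9195 regions had a peak in all 6.

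The libraries of the control group did not contribute evenly to the regions in which 1 control peak was allowed. Control replicate 3 was that library in 502 knockdown-leaning regions (36.9%), control replicate 2 in 308 (22.7%) and control replicate 1, which listed the fewest peaks of the 3, in 207 (15.2%). On the other side, knockdown replicate 1, with the most peaks of all, was the library present in 395 of the 713 control-leaning regions. Among regions that had the other 2 knockdown libraries and at most 1 control library, 63.1% also had knockdown replicate 1, 54.8% knockdown replicate 2 and 61.6% knockdown replicate 3.

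The knockdown-leaning peaks ranked low within their libraries. The median score percentile of the 1359 regions was 42.2 in knockdown replicate 1, 29.3 in replicate 2 and 29.6 in replicate 3, against 67.9 to 78.0 over the 6 libraries for the regions found in all of them. Where a control library did have a peak, its median percentile was 26.1, 35.0 and 35.0 in control replicates 1, 2 and 3. The percentile went with the number of control libraries that shared the region. It was 28.5 for regions with none, 34.9 with 1, 46.8 with 2 and 72.8 with all 3. On the control side it was 31.4, 44.1 and 47.4 with 0, 1 and 2 knockdown libraries. A weakly scored peak is also one that a threshold can drop from a single library, and the part of this in the presence pattern was not tested.

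The regions were short and their edges were largely shared between replicates. The median width was 183 bases (quartiles 120.5 and 413.5, range 12 to 8153), against 212 bases for control-leaning regions and 284 for regions in all 6 libraries. In 847 of the 1359 regions (62.3%) the peaks of the 3 knockdown libraries had the same start and the same end, and in 1273 (93.7%) at least 1 of these was shared by all 3. The figure for the same start and end was 62.7% in control-leaning regions and 75.1% in regions of all 6 libraries.

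By position along the host gene, the 5′ end held fewer of these regions than of the shared ones. Of the 1306 knockdown-leaning regions in exactly 1 host gene, 211 (16.2%) were centred in the first 10% of the gene span, counted from the 5′ end, 219 (16.8%) in the last 10% and 876 (67.1%) between. The first 10% held 201 of 670 control-leaning regions (30%), 37.3% of regions in all 6 libraries and 21.3% of all regions. The start window, which took in bases before the start too, gave the same order. Of regions whose host gene had a known start, 11.9% of knockdown-leaning, 22.1% of control-leaning and 29.2% of those in all 6 libraries overlapped it. Over all regions the share was 14.5%. The share in the first 10% was 12.5% for regions with no control library, 17.4% with 1, 23.5% with 2 and 37.3% with all 3, whereas on the control side it was 28.0%, 30.5% and 27.7% with 0, 1 and 2 knockdown libraries. These shares describe regions, which are not replicates, and no test over regions was run.

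The shares were also taken by score, with regions placed in a low, a middle or a high class of equal range by their median percentile over the 3 libraries of their group. In regions found in all 6 libraries the share in the first 10% was 30.7%, 36.5% and 38.6% from the low to the high class. In the low class, 16.4% of 697 knockdown-leaning regions (Wilson 95% interval 13.8 to 19.3) and 25.3% of 273 control-leaning regions (20.5 to 30.7) lay there. In the middle class the shares were 14.8% (11.9 to 18.1) and 32.4% (26.9 to 38.4). In the high class, with 108 and 147 regions, they were 21.3% (14.6 to 29.9) and 34.7% (27.5 to 42.7). Regions with 3 knockdown and 2 control libraries gave 26.2% (23 to 29.7), 22.2% (19.9 to 24.7) and 22.6% (18.9 to 26.7) from low to high. In the high class, the knockdown-leaning share was thus close to that of these regions just outside the rule. The intervals cover counting error only.

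The same share was taken over the rest of each library. Among peaks outside the knockdown-leaning and control-leaning regions, the first 10% held 30.4%, 27.3% and 28.2% in the control libraries and 24.2%, 30.4% and 29.4% in the knockdown libraries. Knockdown replicate 1 was the lowest and the groups overlapped, with means of 28.6% ± 1.61 and 28.0% ± 3.31 (SD, n = 3 each). Leaving out both kinds takes the knockdown-leaning regions, few of them at 5′ ends, mainly from the knockdown libraries. The rule thus shapes this share, so it is given with no test and does not speak for the whole libraries. The difference, -0.609 percentage points, turned to 0.278 without control replicate 1 and to 1.28 without knockdown replicate 1.

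Knockdown-leaning regions mostly lay in genes that also carried peaks in control cells. They had 1149 host genes, 9.35% of the 12294 genes with any peak, and 29 regions had no host gene. Of the 12294 genes, 5974 (48.6%) had a peak in all 6 libraries, wherever it lay. The next shares were not taken over all genes, and a gene with more peaks has more chances to be a host. Outside the knockdown-leaning regions, 809 host genes (70.4%) had peaks in all 3 control libraries and 131 (11.4%) had none in any control library. The number of these other peaks per host gene was 2.649, 3.212 and 3.176 in the control and 3.99, 2.723 and 2.836 in the knockdown libraries. Knockdown replicate 1 stood highest and the remaining values overlapped, with means of 3.012 ± 0.315 and 3.183 ± 0.701 (SD, n = 3 each). The rule chose these genes, and this count leaves out the knockdown-leaning regions while it keeps the control-leaning ones, which lowers knockdown minus control by construction, so it is given with no test. The difference of 0.17 was 0.245 with the control-leaning regions left out too, -0.111 without control replicate 1 and -0.358 without knockdown replicate 1.

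At the level of whole genes the excess on the knockdown side was smaller than at the level of regions. There were 45 genes (0.366% of those with a peak) with peaks in all 3 knockdown and no control library, and 41 genes (0.333%) the other way round. Of the 45, 36 held a knockdown-leaning region, and the others did not.

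These 36 genes are listed by this count, and the ones named from here to the end of the paragraph were chosen after their values were seen. Overlapping genes are counted apart: ENTREP2 and NSMCE3 share the same region, and that of EID3 also lies in TXNRD1, which had control peaks elsewhere. SAT1 encodes the spermidine and spermine acetyltransferase of polyamine breakdown. Its region, chrX:23783800-23784411, scored 2748.18, 1174.52 and 3100 in knockdown replicates 1, 2 and 3, and the nearest control peak was 116 kb away. JMJD6, a nuclear oxygenase, was the one gene of the 36 with 2 knockdown-leaning regions, with scores of 639.02, 129.19 and 93.28 in one and 279.23, 69.87 and 108.75 in the other. CDCA5, which encodes sororin of the cohesin complex, scored 189.09, 288.9 and 497.27. PPM1D, a phosphatase that acts on p53, scored 131.21, 187.08 and 94.93, and RFC3, a subunit of the clamp loader of DNA replication, scored 332.51, 100.63 and 101.15. EGLN3, an oxygen-sensing prolyl hydroxylase, scored 610.19, 97.21 and 171.89. In EGLN3, JMJD6 and RFC3 knockdown replicate 1 scored highest, while in CDCA5 replicate 3 and in PPM1D replicate 2 did. The lowest percentile over the 3 knockdown libraries stood at 33.1 for CDCA5 and at 75.2 for SAT1, and SAT1 and MIB2 were the genes of the 36 above 75.

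The strongest regions without any control peak, ranked by their lowest percentile over the knockdown libraries, lay in 20 genes. The first 7 had 3100 in every knockdown library, a percentile of 92.7, 94.0 and 93.2, and no peak in any control library. They included regions in FOXK2 (a forkhead transcription factor), CCDC9, MAP7D1, HNRNPUL1 (an RNA-binding protein of the hnRNP family) and MPRIP (a partner of myosin phosphatase). Below them by lowest percentile stood DLGAP4, CPTP (a carrier of ceramide-1-phosphate), SRCAP (a chromatin remodeller), MIB2 (a ubiquitin ligase), SAT1, COL18A1 (a basement membrane collagen), PLCB3, MYO15B, MCM2 (a subunit of the replicative helicase), NR1H2 (the oxysterol receptor LXR beta), SUN1 (a protein of the inner nuclear membrane), WIZ and WDR38.

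The region in HNRNPUL1, chr19:41268078-41268345, scored 3100 in all 3 knockdown libraries. Every control library had its nearest peak 3280 bases away, at percentiles of 96.0, 94.8 and 93.2. HNRNPUL1 had 5, 7 and 7 other peaks in the control and 7, 7 and 8 in the knockdown libraries. In MPRIP the region at chr17:17176426-17176512 also scored 3100 throughout the knockdown libraries, with a control peak 738 bases away in each control library, at percentiles of 23.6, 84.7 and 93.2.

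MCM2 had its region at chr3:127620698-127620880, with scores of 849.05, 1004.35 and 874.71 in the knockdown libraries. The 3 values were alike, which was not so for NR1H2, where the scores were 3100, 742.21 and 1316.37 at chr19:50376473-50376826. In MIB2 the region at chr1:1630292-1630610 scored 2046.03, 3100 and 2595.11, and no library listed any other peak in the gene.

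High scores among the knockdown-leaning regions went with high-scored neighbours. In 26 regions (1.91%) all 3 knockdown libraries were at 3100 or above, 9 of them without a control peak. These 26 regions lacked a peak in a control library 61 times, and the nearest peak in that library was itself at 3100 or above in 34 cases (55.7%), against 240 of 3060 (7.84%) for all knockdown-leaning regions. In 42 of the 61 cases (68.9%) that neighbouring control peak lay in a region that all 3 knockdown libraries held too. The 27 control-leaning regions at this score gave 34 of 57 (59.6%), so the knockdown-leaning regions did not stand apart in this.

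Of the regions with 1 control peak, the strongest were in SLC12A7 (a potassium chloride cotransporter), HMGA1 (a chromatin architectural protein), PRRT2, JPT1, KLF5 (a transcription factor of intestinal crypts), EEF2 (the elongation factor that moves the ribosome along), DMWD and PRPF8 (the core protein of the spliceosome). All 8 had 3100 or more in every knockdown library. In KLF5 the region chr13:73061861-73062734 scored 3100 in each knockdown library and 1587.49 in control replicate 2, with the peaks of control replicates 1 and 3 lying 2273 bases away. In HMGA1, control replicate 3 scored 3100, as all knockdown libraries did, and in EEF2 it scored 1237.46. PRPF8 was the one of the 8 whose control peak, at 3100, came from control replicate 1. In PRRT2 the other 2 control libraries had a peak 72 bases away and in JPT1 99 bases away, at percentiles between 90.0 and 96.0. SOX4, DDX51 and BEST1 were the strongest regions just outside the rule, with 3100 in each knockdown library and a second control library present. SOX4 scored 2392.57 and 1445.29 in control replicates 2 and 3, and DDX51 and BEST1 scored 3100 in control replicates 1 and 3.

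Near misses of that kind were uncommon. The nearest same-strand peak of a control library that lacked one in the region was at a median of 3.71 kb (quartiles 1.44 and 11.9 kb, in genome bases with introns counted). It lay within 200 bases for 20 of the 1359 regions (1.47%, Wilson 95% interval 0.955 to 2.26), within 1 kb for 217 (16.0%) and beyond 10 kb for 389 (28.6%). Control-leaning regions had a median of 5.14 kb to the nearest knockdown peak, with 20 of 713 (2.81%, 1.82 to 4.29) within 200 bases. A peak that overlaps a region by 1 base counts as present, so these shares leave out every overlap. Peak names are numbered along the genome, and the lists hold only 11.5% to 21.1% of the numbers. Between the listed peaks on either side of an absent control peak, no number was left out in 164 of 3044 absences (5.39%), so in the others an unlisted peak could have lain between them.

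In 106 host genes, 9.23% of those with a knockdown-leaning region and 16.4% of the 645 with a control-leaning region, both kinds occurred. Of the 12294 genes with a peak, 5.25% held a control-leaning and 9.35% a knockdown-leaning region. The number of peaks per gene was not taken into account. The nearest pair was a median of 8857 bases apart and within 1 kb in 12 genes (11.3%), and the control-leaning region was nearer the 5′ end in 55 of the 106 (51.9%). In 7 genes neither region had a library of the other group, and the 4 of these within 1 kb were CSTF2, TMEM125, SUN1 and CGREF1, named after their values were seen. In CSTF2, a subunit of the cleavage stimulation factor that acts in polyadenylation, the knockdown libraries scored 1545.59, 385.48 and 674.09 over the gene start printed above, at chrX:100820359-100820474. The control libraries scored 447.37, 103.67 and 158.07 in a region that began 62 bases past its end, chrX:100820536-100820648. No library had both. In SUN1 the knockdown libraries scored 1352.67, 1056.06 and 780.33 at chr7:816755-816871, and the control libraries 477.79, 1075.72 and 794.09 at chr7:817280-817499. These pairs were complete in both directions across the 6 libraries, and they were 4 of 1149 host genes.

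Most host genes, 991, held 1 knockdown-leaning region, and 158 (13.8%) held 2 or more. MYH14, which encodes a nonmuscle myosin heavy chain, held 7, of which 3 had no control peak. These 7 scored low, with the lowest percentile over the knockdown libraries between 0.0112 and 26.7. MYH14 had 14, 22 and 22 peaks in the control and 31, 25 and 30 in the knockdown libraries. Without the 7 regions, which the rule chose as present after knockdown, the numbers were 14, 20 and 20 against 24, 18 and 23. LAMB3, the beta chain of laminin-332 of epithelial basement membranes, held 6, of which 2 had no control peak, and 1 control-leaning region. It had 6, 8 and 7 peaks in the control and 14, 11 and 12 in the knockdown libraries. Outside the regions these were 6, 6 and 5 against 8, 5 and 6. The strongest region in LAMB3, chr1:209614870-209615407 at 99.3% of the span, scored 704.63, 3100 and 3100 in the knockdown libraries and 521.29 in control replicate 3. ARHGEF10L, IQCE, MCF2L, PLEKHA6, RPTOR, SPTBN5 and TNIK were tied at 4. In PLEKHA6 and in RPTOR, the scaffold of the mTOR complex that senses nutrients, each of the 4 regions had its 1 control peak in control replicate 3. Those control peaks scored 458.48, 581.48, 118.25 and 165.05 in RPTOR, and all but the one at 118.25 stood above every knockdown peak of their region. In PLEKHA6 they scored 1289.64, 828.26, 266.74 and 104.11, and those at 1289.64 and 828.26 stood above. RPTOR had 13, 15 and 22 peaks in the control and 17, 19 and 16 in the knockdown libraries.

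Gene groups were read against the shares over all 12294 genes with a peak. Of these, 1149 (9.35%) held a knockdown-leaning region and 645 (5.25%) a control-leaning one. Of the regions in genes, 3.29% were knockdown-leaning. A gene with more regions has more chances to hold one, so both shares are given. Since the members were chosen on presence and the groups are small, the counts are descriptions with no test. Genes that install ac4C or act in small nucleolar ribonucleoproteins numbered 13 with a peak. Of these, 3 held a knockdown-leaning region (7.32% of regions) and none a control-leaning one, in a group too small to set against 5.25%. The 3 were FBL, the methyltransferase of box C/D particles, RRP9 of the U3 particle, and GAR1 of box H/ACA particles. RRP9 had no control peak in the region and scored 85.56, 3067.85 and 3100 in the knockdown libraries, a wide spread. FBL scored 362.68, 861.61 and 516.15 against 68.89 in control replicate 2, and GAR1 scored 71.8, 167.93 and 166.31 against 132.99 in control replicate 1, within the knockdown range.

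Translation genes gave mixed counts. Of translation initiation factors and their regulators, 5 of 38 held a knockdown-leaning region (13.2%, and 4.13% of regions) and 1 held a control-leaning one. EIF4G1, the scaffold of the cap-binding complex, scored 2955.92, 757.97 and 1840.57 in the knockdown libraries and 177.31 in control replicate 1. EIF3CL shares near-identical sequence with a neighbouring copy, so its region is uncertain. Of cytosolic ribosomal protein genes, 2 of 22 did (9.09%, and 7.41% of regions). In RPS19 the 1 control peak, at 3100 in control replicate 1, scored above all 3 knockdown peaks, at 864.02, 117.82 and 54.72. Of mitochondrial ribosomal protein genes, 1 of 47 did (2.13%, and 1.15% of regions) and 3 (6.38%) held a control-leaning region. The SR and hnRNP proteins gave 2 of 21 (5.36% of regions), HNRNPUL1 with 2 regions and HNRNPA0. A control-leaning region was held by 1 SR or hnRNP gene (4.76%) and by 0 cytosolic ribosomal protein genes.

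Of genes of chromatin and transcription, the histone lysine methyltransferases and demethylases gave 7 of 36 (19.4%). Their knockdown-leaning regions were 10 of 220 (4.55%), 3 of them in EHMT1. Of these genes 3 held a control-leaning region. SETD2 had no control peak in its region and scored 1292.35, 113.4 and 105.52, so replicate 1 stood above the other 2. Histone genes gave 1 of 52 (1.92%, and 1.75% of regions), H3-3A. Zinc finger protein genes gave 24 of 424 (5.66%, and 2.57% of regions), with ZNF790 at 3100, 747.76 and 2242.43 against 2120.26 in control replicate 2. A control-leaning region was held by 18 zinc finger genes (4.25%) and 1 histone gene (1.92%). Epithelial junction and intestinal identity genes gave 4 of 28 (14.3%, and 5.22% of regions): CDX2, HNF4A, KLF5 and TJP3, a tight junction protein. Of the 28, 2 (7.14%) held a control-leaning region. CDX2, an intestinal transcription factor, scored 2262.78, 550.63 and 251.15 against 594.27 in control replicate 3, a value inside the knockdown range.

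The core genes of PI3K, AKT and mTOR gave 3 of 26 (11.5%), with 8 of 144 regions (5.56%), in MAPKAP1, PIK3C2B and RPTOR. Of the 26, 2 (7.69%) held a control-leaning region. None of the 3 regions in PIK3C2B, a class II phosphoinositide kinase, had a control peak, while another region in the gene was control-leaning. ERBB receptors and their feedback inhibitors gave 2 of 16 (3.33% of regions), namely ERBB2 and the phosphatase DUSP5. ERBB2 scored 352.88, 66.56 and 111.71 in the knockdown libraries and had no control peak nearer than 11698 bases. WNT and beta-catenin genes gave 4 of 35 (BCL9, LRP5, TCF7L1 and TCF7L2), with 3.88% of regions. In LRP5, a WNT coreceptor, the 1 control peak at 3041.36 was above the knockdown scores of 605.78, 180.15 and 88.05. Cell cycle and replication genes gave 2 of 32 (1.71% of regions), the helicase subunits MCM2 and MCM5. A control-leaning region was held by 0 of the ERBB, 1 of the WNT and 1 of the cell cycle genes.

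Among the other groups, kinesins gave 6 of 35 (17.1%) with 3 control-leaning, solute carriers 15 of 243 (6.17%) with 12, and UBR ligases and ubiquitin-specific proteases 6 of 48 (12.5%) with 1. By regions these shares were 3.59%, 2.45% and 3.19%, against 3.29% over all genes. By chromosome, the knockdown-leaning regions per 100 regions ran from 2.02 on chromosome 8 and 2.20 on chromosome 5 to 4.06 on chromosome 9 and 4.87 on chromosome 13, where 29 of 595 regions were knockdown-leaning.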

How the data were processed

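Per the labels and the study's methods, total RNA from SW620 cells was fragmented and pulled down with beads carrying an antibody against ac4C. The authors deposited 1 peak list per IP library, limited to mRNA, with a strand and a score whose scale is not stated. The build per the submitters' processing notes is GRCh38, and the aligner, the peak caller with its settings, and the role of the inputs are not given in the sources used here.

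Members and gene lists were chosen with earlier results of these data known. Peaks overlapping by at least 1 base on a strand were merged. The deposited scores were ranked within each library, ties sharing a mid-rank. Genes came from a RefSeq table (GRCh38.p14, 20056 protein-coding genes). For 4231 of these no strand was given, and either strand was accepted. Depth is unknown because no counts are listed, and the Wilson intervals (95%) cover counting error only. Groups of libraries were compared by two-sided exact permutation tests, except the other peaks of host genes, whose planned test is not given because the choice of regions shapes that count. The merging was tested on simulated lists.

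Genes named were, by lowest knockdown percentile with 1 region per gene, the 20 highest without a control peak, the 8 highest with 1 and the 3 highest with 2, those with most regions, and examples of up to 3 regions per list. A few of these are not reported here. Names outside it are marked in the text. Alternatives were the top-scored 50% of each list, equal numbers of peaks, merging within 50 bases, at least 50% of a region covered, no library of the other group, a replicate block and each library left out. Python 3.11.15, numpy 2.4.6, scipy 1.17.1 and matplotlib 3.10.9 were used.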

Additional observations from a re-analysis of the deposited data

How the results depend on the processing

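With all 6 libraries kept, the settings gave 1.52 to 2.41 knockdown-leaning regions per control-leaning one (1.91 as reported). Both counts stayed within 1.5 times of those reported when peaks within 50 bases were merged, strand was ignored, or 17877 peaks per library kept. The top-scored 50% of each list gave 683 against 436 regions, a median width of 242 bases, a median percentile of 66.5 and 21.4% in the first 10% of the gene span. With equal numbers of peaks there were 1003 against 658 regions, so the ratio fell from 1.91 to 1.52. The percentile was then 46.1 and the share in the first 10% was 19.1%. Asking for a peak over 50% of a region before it counted as present put a control peak within 200 bases of 12.1% of regions, by construction. With no library of the other group, 342 against 142 regions were left, 0.877% with a control peak within 200 bases, a width of 171 bases and 12.5% in the first 10%.

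With a library left out, the knockdown-leaning and control-leaning rules no longer mirror each other. The group that lost a library needed a peak in each library left to it, and the other still needed all 3. The ratios of 1.38 to 2.27 found then compare unlike rules. Leaving out a library also loosens the rule. It gave 2157 to 3174 knockdown-leaning and 1333 to 1758 control-leaning regions, 1.23% to 2.64% near a control peak, widths of 180 to 201 bases, percentiles of 28.2 to 40.8 and 16.5% to 20.4% in the first 10%. The differences between groups, knockdown minus control, ran from -0.358 to 0.232 other peaks per host gene, from -1846 to 3592 peaks per library and from -1.78 to 1.28 percentage points of all other peaks in the first 10%. The other peaks per host gene also reversed, to -0.0198, when divided by the library mean, and the cause of these reversals was not tested. They differed by 0.0264 with equal numbers of peaks, by 0.403 with no control library and by 0.245 with the control-leaning regions left out too, against 0.17 as reported. Same-numbered libraries did not deviate together (correlations 0.0295, 0.00234 and 0.0318). With the replicate block (exact sign-flip test, smallest possible p = 0.25) the differences were 0.17 and -0.609, both given with no test, and 1584 with p = 1. Settings on peaks per library, on all other peaks and on leaving out control-leaning regions were chosen after the data were seen. Depth is unknown and sets no stated limit.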
